A study of Mus musculus with 7 samples.

Results

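The 10 genes described here serve inhibitory transmission and amacrine cell identity in the retina: *Gad1*, *Gad2*, *Slc32a1*, *Slc6a9*, *Meis2*, *Barhl2*, *Neurod6*, *Nr4a2*, *Chat* and *Th*. They were chosen by symbol from the 48440 genes of the deposited count table, with earlier results of these data known. All 10 were present and had enough counts to be tested. Bulk RNA-seq was made from retinas of mouse embryos at E16, pooled within a genotype for each library, in 7 libraries. The WT library (n = 1) carried the Chx10Cre driver alone, the 3 Het libraries were Chx10-Cre;Ptbp1lox/WT and the 3 KO libraries were Chx10-Cre;Ptbp1lox/lox. All groups therefore carried Cre, which this driver expresses in retinal progenitors, and *Ptbp1*, which encodes an RNA-binding protein that regulates splicing, was floxed on 1 or both alleles in Het and KO. No source used here ties a library to a litter or a day, so p-values measure the spread between these pools.

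Amacrine cells are the inhibitory interneurons of the inner retina. Most release GABA or glycine, and small subtypes add a second transmitter: starburst cells make acetylcholine and another type makes dopamine. GABA is made from glutamate by the enzymes of *Gad1* (GAD67) and *Gad2* (GAD65), loaded like glycine into vesicles by the transporter of *Slc32a1* (VGAT), and glycine is taken back up by the transporter of *Slc6a9* (GlyT1). Horizontal cells also use this GABA machinery, and at E16 many amacrine cells are still being born.

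The libraries held between 120593979 and 171117305 counts. The targeted gene was ordered as labelled: *Ptbp1* stood at 381 CPM (counts scaled to library size by edgeR's TMM method) in WT, at 210, 219 and 234 CPM in Het, and at 27.9, 6.04 and 46.9 CPM in KO. Het replicate 1 stood apart by skeletal muscle genes: the 10 muscle markers summed to 335 CPM there and to between 5.36 and 6.59 CPM in the other 6 libraries. Summed photoreceptor precursor markers ranged from 726 to 816 CPM in Het and from 903 to 1026 CPM in KO, and summed ganglion cell markers from 2470 to 2580 CPM in Het and from 2069 to 2362 CPM in KO. Summed horizontal cell markers overlapped, at 206 to 216 CPM in Het and 201 to 221 CPM in KO. In WT the photoreceptor, ganglion and horizontal cell sums were 632, 2419 and 204 CPM, each below every Het library. The photoreceptor, ganglion and horizontal cell lists were led by *Rbp3*, *Otx2* and *Crx*, by *Gap43*, *Nefm* and *Sncg*, and by *Prox1*, *Onecut2* and *Onecut1*. Respectively, 3 of 7, 3 of 10 and 1 of 5 genes were called by the rule given with the next comparison. That rule called 7.22% of all tested genes. The called photoreceptor and horizontal cell genes rose. Among the called ganglion cell genes *Thy1* rose, and *Gap43* and *Atoh7* fell. Progenitor sums, led by *Ccnd1*, *Top2a* and *Mki67*, ranged from 6268 to 6484 CPM in Het and from 6265 to 6560 CPM in KO. Sums over the list named telencephalic neuron markers, mostly *Eomes*, were 76.0 to 84.6 CPM in Het and 76.6 to 91.7 CPM in KO. In WT the progenitor sum was 6635 CPM and the telencephalic sum 79.3 CPM. Of these, 2 of 8 progenitor genes fell (*Sfrp2* and *Fgf15*) and 1 of 7 tested genes of the telencephalic list rose (*Tbr1*, log2 fold change 1.45). Over all tested genes, 3.21% were called downward and 4.01% upward. Whether *Eomes* and *Tbr1* came here from retinal or brain cells was not tested. The part of these other cells in the results on the 10 genes was not tested.

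Between KO and Het, 5 of the 10 genes rose (*Gad1*, *Meis2*, *Neurod6*, *Nr4a2* and *Chat*) and *Th* fell. A gene was called changed at a Benjamini-Hochberg adjusted p below 0.05 in edgeR's quasi-likelihood test over 20019 genes. It also had to differ by more than 1.2-fold either way, and both limits were those of the study's methods. By that rule 7.22% of all tested genes were called, 4.01% upward and 3.21% downward, and 9.00% (4.90% upward) of genes with a mean of at least 1 CPM, as 8 of the 10 had. DESeq2, the tool of the study's methods, called 7 of the 10 and 11.9% of the genes to which it gave an adjusted p. The median log2 fold change of the 10 was 0.61, against -0.0047 over all tested genes. The 10 were chosen with earlier results of these data known, so their shares and median are descriptions and not a test. When the fold limit itself was the null hypothesis (edgeR's glmTreat), only *Gad1* and *Chat* of the 10 were called. In 9 of the 10 every KO library was on 1 side of all Het libraries, which was so for 36.3% of all tested genes, and 9 had an unadjusted p below 0.05, as had 29.7% of all tested genes. In bulk tissue, fewer cells of a type and less RNA per cell cannot be told apart, and this holds for each value given here.

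**Figure D1:**
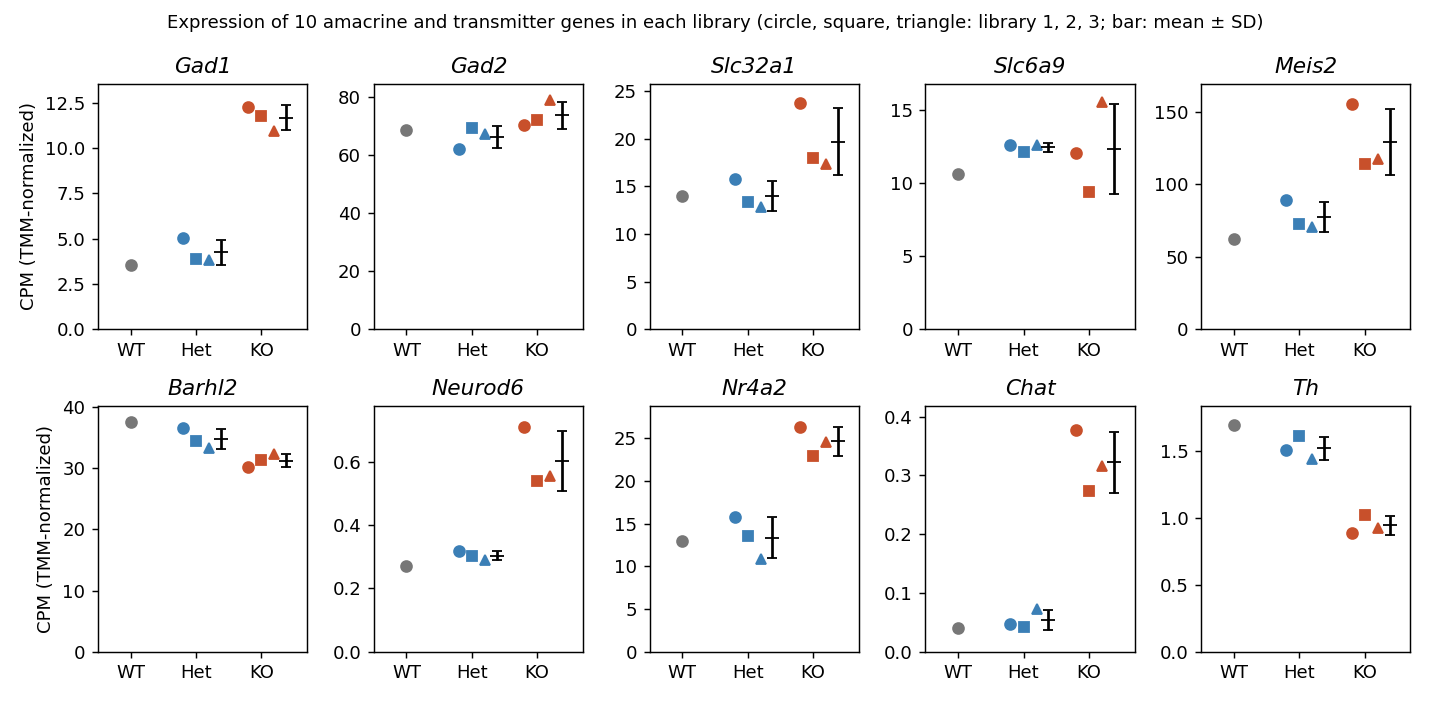
Level of each of the 10 genes in each of the 7 libraries, in TMM-scaled CPM, with 1 panel per gene and points for single libraries by genotype and bars for the mean ± SD of 3 libraries. *Gad1*, *Meis2*, *Neurod6*, *Nr4a2* and *Chat* sit higher in all 3 KO libraries than in all 3 Het libraries, *Th* sits lower, and *Slc6a9* overlaps.

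Of the 2 genes for the GABA-making enzymes, *Gad1* rose and *Gad2* was not called. *Gad1* stood at 3.57 CPM in WT, at 5.06, 3.88 and 3.85 CPM in Het, and at 12.3, 11.8 and 10.9 CPM in KO. Every KO library lay above every other library. The mean was 4.26 ± 0.689 CPM in Het and 11.7 ± 0.681 CPM in KO (SD, n = 3 each), a 2.74-fold difference (log2 fold change 1.45, SE 0.125, edgeR adjusted p = 0.00323). The call held in 15 of 15 alternatives, and leaving out 1 library at a time gave log2 fold changes of 1.39 to 1.60. *Gad2* stood at 68.5 CPM in WT, at 62.0, 69.4 and 67.2 CPM in Het, and at 70.2, 72.0 and 78.9 CPM in KO. The KO libraries were all above the Het libraries by a small margin, and WT lay among the Het libraries. *Gad2* differed by 1.11-fold and was not called (log2 fold change 0.16, 95% confidence interval 0.01 to 0.30, edgeR adjusted p = 0.137). *Gad1* (ENSMUSG00000070880.10) lies on chromosome 2 at 70553072 to 70602014 and *Gad2* (ENSMUSG00000026787.3) on the same chromosome at 22622205 to 22693874, both on the plus strand of GRCm38.

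The *Gad1* to *Gad2* ratio, per kilobase of exon, was 0.0401 in WT, 0.0627, 0.0430 and 0.0441 in Het, and 0.135, 0.126 and 0.107 in KO. The genotypes did not overlap in this ratio, with a log2 difference of 1.31. An exact two-sided permutation test gave p = 0.1, which is the smallest that 3 against 3 libraries allow (0.14 adjusted over the 7 ratios examined). The ratio of *Gad1* to *Slc32a1* separated likewise, with 0.111 ± 0.00572 in Het and 0.220 ± 0.0270 in KO (SD, n = 3 each, exact permutation p = 0.1).

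**Figure D2:**
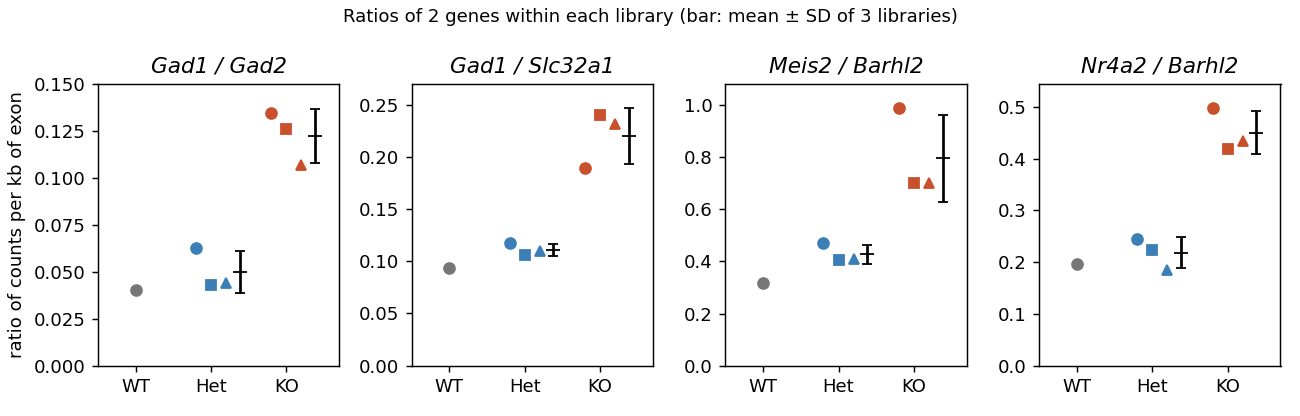
Ratios between 4 pairs of genes, per kilobase of exon, in single libraries by genotype, with the mean ± SD of 3 libraries as bars. The *Gad1* to *Gad2* ratio lies at 0.0430 to 0.0627 in Het and at 0.107 to 0.135 in KO.

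The promoters of the genes whose products make GABA are given because one was called and the other was not. Each sequence is the 250 bases before the RefSeq transcription start (GRCm38.p6, plus strand), with letters that match TATAAA or CANNTG on either strand in capitals. *Gad1* (chr2:70561879-70562128) has TATAAA, read on the other strand, 141 bases and CANNTG 104 bases before its start, and *Gad2* (chr2:22622077-22622326) has CANNTG 76 bases before its own. Among 32851 promoters of this length, 12.4% held TATAAA and 66.2% held CANNTG, so either match describes the letters alone.
Gad1: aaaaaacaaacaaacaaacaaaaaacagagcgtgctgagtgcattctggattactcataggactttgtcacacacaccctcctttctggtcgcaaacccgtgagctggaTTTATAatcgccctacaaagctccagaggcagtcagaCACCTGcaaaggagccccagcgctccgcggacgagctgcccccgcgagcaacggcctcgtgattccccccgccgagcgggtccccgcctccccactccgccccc
Gad2: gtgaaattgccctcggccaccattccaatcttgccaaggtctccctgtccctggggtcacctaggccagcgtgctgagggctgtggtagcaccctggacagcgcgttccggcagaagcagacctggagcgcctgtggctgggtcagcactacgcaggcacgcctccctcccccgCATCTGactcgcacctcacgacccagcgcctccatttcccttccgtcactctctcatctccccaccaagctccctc

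*Slc32a1*, the vesicular transporter, was higher in KO in all libraries without passing the test. It stood at 14.0 CPM in WT, at 15.8, 13.4 and 12.8 CPM in Het, and at 23.7, 18.0 and 17.3 CPM in KO. KO replicate 1 lay well above the other KO libraries. The fold change was 1.41 (log2 fold change 0.49, SE 0.140, 95% confidence interval 0.16 to 0.82, edgeR adjusted p = 0.0702). DESeq2 called it, with an adjusted p of 0.00191, as did edgeR with replicate number as a block (adjusted p = 0.0196), although replicate numbers did not pair the samples. Its ratio to *Gad2*, per kilobase, was 0.428 in WT, 0.535, 0.406 and 0.402 in Het, and 0.711, 0.525 and 0.461 in KO. This ratio overlapped between genotypes only through Het replicate 1 (exact permutation p = 0.3). The gene (ENSMUSG00000037771.11) lies on chromosome 2 at 158610767 to 158615748, and the antisense gene *Gm14205*, which shares 697 exon bases with it, had at most 3 counts in a library.

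The glycine transporter gene *Slc6a9* (ENSMUSG00000028542.17, chromosome 4 at 117834506 to 117875198) did not separate the genotypes. *Slc6a9* stood at 10.6 CPM in WT, at 12.6, 12.1 and 12.6 CPM in Het, and at 12.1, 9.40 and 15.5 CPM in KO. The KO libraries spread on both sides of the Het libraries. The log2 fold change was -0.01 (95% confidence interval -0.42 to 0.39, edgeR adjusted p = 0.968). Its exons overlap *Ccdc24* by 1429 bases and *B4galt2* by 46 bases on the opposite strand. Whether the counting used strand is not given in the sources used here.

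Of the 4 transcription factor genes, *Meis2*, *Nr4a2* and *Neurod6* rose and *Barhl2* was not called. *Meis2*, a TALE homeodomain factor (ENSMUSG00000027210.20, chromosome 2 at 115863064 to 116065839) found in many GABAergic amacrine cells, stood at 62.2 CPM in WT, at 89.4, 72.5 and 70.7 CPM in Het, and at 155, 114 and 117 CPM in KO. No Het library reached the lowest KO library. Het replicate 1, the library with muscle transcripts, was the highest Het library for *Meis2*. The mean rose 1.66-fold (log2 fold change 0.73, SE 0.142, edgeR adjusted p = 0.0255). Without that library the log2 fold change was 0.85 and the adjusted p 0.024. The call was lost without Het replicate 2, Het replicate 3 or KO replicate 2.

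*Nr4a2*, which encodes the orphan nuclear receptor Nurr1 (ENSMUSG00000026826.13, chromosome 2 at 57106830 to 57124003), stood at 12.9 CPM in WT, at 15.7, 13.5 and 10.9 CPM in Het, and at 26.4, 23.0 and 24.6 CPM in KO. The lowest KO library exceeded the highest Het library, and WT fell among the Het libraries. It rose 1.85-fold (log2 fold change 0.88, SE 0.134, edgeR adjusted p = 0.0139), and lost the call without Het replicate 2 (adjusted p = 0.0681). *Neurod6* (ENSMUSG00000037984.9, chromosome 6 at 55677822 to 55681263), a bHLH factor that marks an amacrine type using neither GABA nor glycine, was rare. It had 40 counts in WT, 54, 36 and 44 in Het, and 94, 71 and 74 in KO. Counts were lower in every Het library than in any KO library. In CPM it rose 1.98-fold, from 0.303 ± 0.0140 to 0.601 ± 0.0937 (SD, n = 3 each, log2 fold change 0.99, edgeR adjusted p = 0.0250). Leaving out Het replicate 2, Het replicate 3, KO replicate 1 or KO replicate 2 ended the call.

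*Barhl2*, a homeodomain factor of amacrine and ganglion cells (ENSMUSG00000034384.11, chromosome 5 at 106452523 to 106458166), was lower in KO without being called. It stood at 37.5 CPM in WT, at 36.6, 34.4 and 33.3 CPM in Het, and at 30.2, 31.3 and 32.3 CPM in KO. All KO libraries lay below all Het libraries. The log2 fold change was -0.15 (95% confidence interval -0.26 to -0.04, edgeR adjusted p = 0.0781). In DESeq2 it missed the call by the fold limit alone (log2 fold change -0.16, DESeq2 adjusted p = 0.0406). The ratio to *Barhl2*, per kilobase, was 0.427 ± 0.0365 in Het and 0.796 ± 0.166 in KO for *Meis2*, and 0.218 ± 0.0301 and 0.451 ± 0.0423 for *Nr4a2* (SD, n = 3 each, exact permutation p = 0.1 for each).

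**Figure D3:**
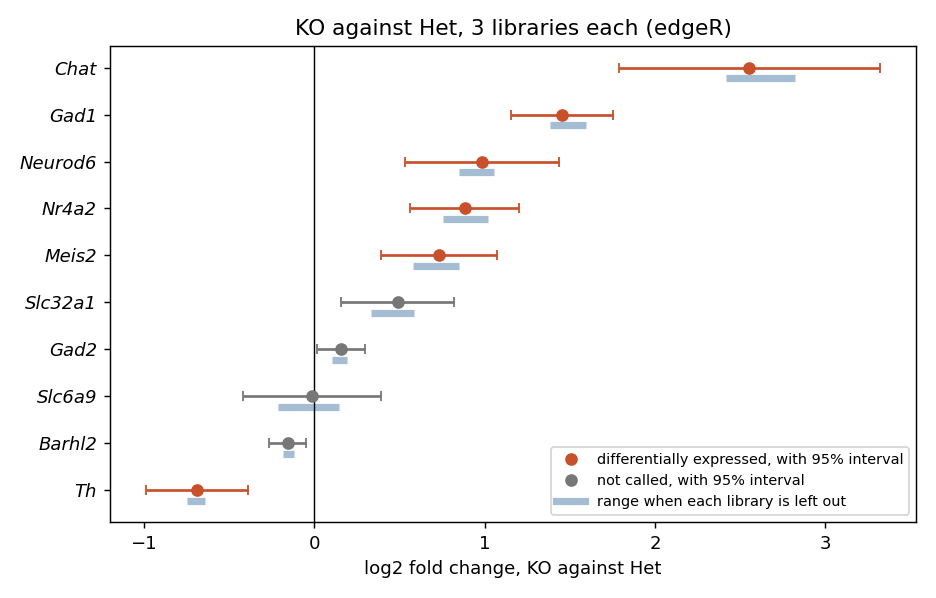
Log2 fold change of KO over Het for each of the 10 genes with 95% confidence intervals from edgeR's quasi-likelihood fit, called genes in red, and pale bars for the range when each library is left out. The interval of *Chat* spans 1.79 to 3.32, that of *Gad1* 1.15 to 1.75, and that of *Slc6a9* includes 0.

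*Chat* (ENSMUSG00000021919.7, chromosome 14 at 32408203 to 32465989) encodes choline acetyltransferase, the enzyme that makes acetylcholine in starburst cells. It was counted 6 times in WT, 8, 5 and 11 times in Het, and 50, 36 and 42 times in KO. These are few counts, and every KO library was higher than all the others. In CPM the mean was 0.0539 ± 0.0163 in Het and 0.322 ± 0.0522 in KO (SD, n = 3 each), a 5.98-fold difference (log2 fold change 2.55, SE 0.321, edgeR adjusted p = 0.00831). The call held in each of the 14 alternatives that could test the gene, with 2.42 to 2.82 when each library was left out. The *Slc18a3* gene, for the vesicular acetylcholine transporter, lies within the *Chat* gene on the same strand and shares 0 exon bases with it. It rose 2.79-fold (log2 fold change 1.48, adjusted p = 0.0162 by edgeR). The *Chat* to *Slc18a3* ratio, per kilobase, was 0.0147 ± 0.00783 in Het and 0.0293 ± 0.00342 in KO (SD, n = 3 each), without overlap (exact permutation p = 0.1). The antisense gene *Gm2990* overlaps *Chat* outside its exons and was counted 60 times in WT, 43 to 94 times in Het and 137 to 170 times in KO.

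*Th* (ENSMUSG00000000214.11, chromosome 7 at 142892752 to 142931128) encodes tyrosine hydroxylase, which starts dopamine synthesis. It stood at 1.69 CPM in WT, at 1.51, 1.61 and 1.44 CPM in Het, and at 0.890, 1.03 and 0.923 CPM in KO, with all KO libraries below all others. In KO it averaged 62.2% of its Het level (log2 fold change -0.69, SE 0.125, edgeR adjusted p = 0.0219). Without Het replicate 2, Het replicate 3 or KO replicate 2, the call was lost. It was also lost in the edgeR fit with replicate number as a block (adjusted p = 0.0517), although replicate numbers did not pair the samples. The *Th* to *Ddc* ratio, per kilobase, was 3.30 in WT, 1.26, 2.68 and 3.25 in Het, and 2.02, 1.99 and 1.73 in KO. This ratio overlapped between genotypes only through Het replicate 1, the library with muscle transcripts (exact permutation p = 0.7). For *Nr4a2* and *Th*, the promoter letters are given as the 250 bases before the RefSeq start on the minus strand (GRCm38.p6), for a gene that rose and the gene that fell. The cyclic AMP response element letters TGACGTCA were searched too, and matches are in capitals. *Nr4a2* (chr2:57124004-57124253) has TATAAA, read on the other strand, 164 bases before its start, and *Th* (chr7:142899996-142900245) has CANNTG 199 and TGACGTCA 45 bases before its own. TGACGTCA was held by 1.55% of the 32851 promoters.
Nr4a2: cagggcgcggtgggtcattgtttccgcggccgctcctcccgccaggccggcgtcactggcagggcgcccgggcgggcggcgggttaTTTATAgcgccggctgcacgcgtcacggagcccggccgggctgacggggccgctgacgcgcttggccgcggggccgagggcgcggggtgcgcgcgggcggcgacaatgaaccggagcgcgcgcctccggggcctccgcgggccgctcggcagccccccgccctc
Th: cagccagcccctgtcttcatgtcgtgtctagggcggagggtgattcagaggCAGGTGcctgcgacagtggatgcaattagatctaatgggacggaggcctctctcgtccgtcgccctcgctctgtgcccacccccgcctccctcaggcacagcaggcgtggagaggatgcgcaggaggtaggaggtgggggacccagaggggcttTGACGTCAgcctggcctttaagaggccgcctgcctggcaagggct

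Per kilobase of exon, *Barhl2*, *Gad2* and *Meis2* were the most abundant of the 10 in Het, at 15.0, 11.3 and 6.44 CPM per kilobase, and *Gad1* was eighth at 0.558. In Het only *Th* and *Gad1* had overlapping libraries among neighbours in this order. In KO, *Gad1* (1.53) stood above *Th* (0.400). There, *Gad2* (12.5 CPM per kilobase) overlapped with *Barhl2* (13.5) and with *Meis2* (10.7), and *Slc32a1* (7.04) overlapped with *Nr4a2* (6.07). Within each KO library *Barhl2* was above *Gad2* and *Slc32a1* above *Nr4a2*, while *Gad2* was not above *Meis2* in each. *Chat* stayed last, at 0.0115 in Het and 0.0685 in KO.

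**Figure D4:**
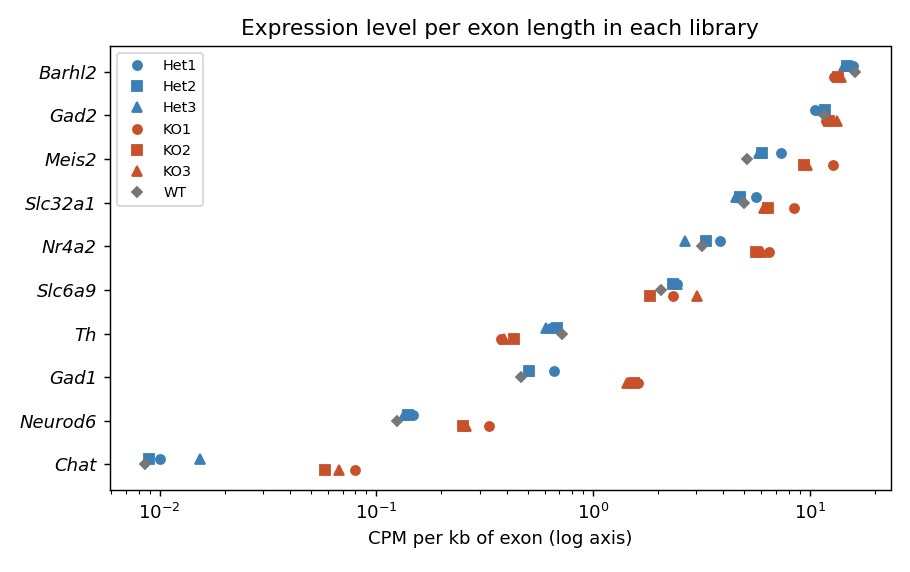
Level of the 10 genes in CPM per kilobase of exon (log axis), with 1 point per library, coloured by genotype. *Gad1* moves above *Th* in KO, and *Chat* remains the lowest.

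Among 13750 genes with a mean of at least 1 CPM, the profile over the 7 libraries nearest to that of *Gad1* was that of *Tbr1* (root mean square difference 0.135 in centred log2 values), followed by *D030068K23Rik* and *Slc18a3*. *Slc32a1* was nearest to *Arhgef37* (0.0460), *Drd2* (0.0615) and *Lrrn3*, and *Meis2* to *Htr1d* (0.0582), *Pmp22* and the GABA-A receptor gene *Gabra2* (0.0681). *Nr4a2* was nearest to *Scg2* (0.0698), *Rtbdn* and *Klf9*, and *Th* to *Dgke* (0.0341), *Rps6ka2* and *Hsd17b7*. *Gad2* was nearest to *Armcx1* (0.0272), *Slc6a9* to *H60b* (0.0669) and *Barhl2* to *D430042O09Rik* (0.0226), while *Neurod6* and *Chat* were under the level set for this search. These are descriptions over 7 libraries that share the same genotype contrast.

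Of the other genes of these pathways, 28 of 107 tested (26.2%) were called, 22 upward and 6 downward, beside 7.22%, 4.01% and 3.21% of all tested genes (edgeR adjusted p between 0.00209 and 0.0392), with a median log2 fold change of 0.13 over the tested ones. The lists were chosen with earlier results of these data known, so these shares are descriptions and not a test of the lists. The values that follow are log2 fold changes. Among the amacrine fate factors, 7 of 25 rose and *Isl1* fell (log2 fold change -0.68). Risers were *Lhx9* (1.35), *Neurod2* (1.48, from 0.996 ± 0.245 CPM in Het), *Tfap2c* (0.74), *Tfap2b* (0.54), *Bhlhe22* (0.50), *Tfap2a* (0.46) and *Neurod1* (0.32). *Pax6*, *Six3* and *Tcf4*, the most abundant of the group, were not called, *Tcf4* (0.21, edgeR adjusted p = 0.0217) by the fold limit alone. Without Het replicate 2 or Het replicate 3, 4 of these 25 were called, while the calls over all tested genes fell from 1445 to 386 and 496. Of 13 transport and metabolism genes, 3 rose, among them the GABA transporter *Slc6a11* (0.66) and the glycine transporter *Slc6a5* (0.99), while *Slc38a1*, *Gldc* and *Shmt2* were not called. Of 29 receptor, chloride and synapse genes tested, 7 rose, among them *Gabra2* (0.71), *Gabrd* (1.22), *Glra3* (0.76) and the chloride extruder *Slc12a5* (0.80). *Gabrb1* (0.54), *Gabrb2* (0.45) and *Glrb* (0.40) also rose, and *Gabbr1* and *Nlgn2* were not called. Of this group 1 gene was called without Het replicate 2 or Het replicate 3, 2 without KO replicate 2 and 4 without KO replicate 1, and of the transport group 1 without Het replicate 3 or KO replicate 2.

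Of 14 cholinergic and starburst genes, *Slc18a3*, *Megf10* (0.45) and *Chrna6* (0.83) rose and *Chrna3* and *Chrnb4* fell by 0.28 each, while *Rnd3* and *Chrna4* were not called. Of 12 monoamine genes tested, 1 (8.33%, near the 7.22% of all tested genes) was called: *Slc18a2*, the vesicular monoamine transporter, fell by 0.31, and *Maoa* and *Qdpr* were not called. Of 14 peptide and other subtype markers tested, *Gjd2* (0.51) and *Car2* (0.79) rose and *Gal* (-0.80) and *Cck* (-1.76) fell, and *Calb2* and *Cnr1* were not called. Without Het replicate 2 or Het replicate 3, the calls numbered 2 in the cholinergic group and 1 in the peptide group, and *Slc18a2* was not called. Without Het replicate 2, Het replicate 3 or KO replicate 2, the calls in all these lists numbered 10, 9 and 17. The calls over all tested genes numbered 386, 496 and 612 in these fits, against 1445 with all 7 libraries. In every fit that left out 1 library, 7 genes were called, among them *Neurod1*, *Tfap2b*, *Lhx9*, *Isl1*, *Gabrb2* and *Megf10*, named after their values were seen.

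**Figure D5:**
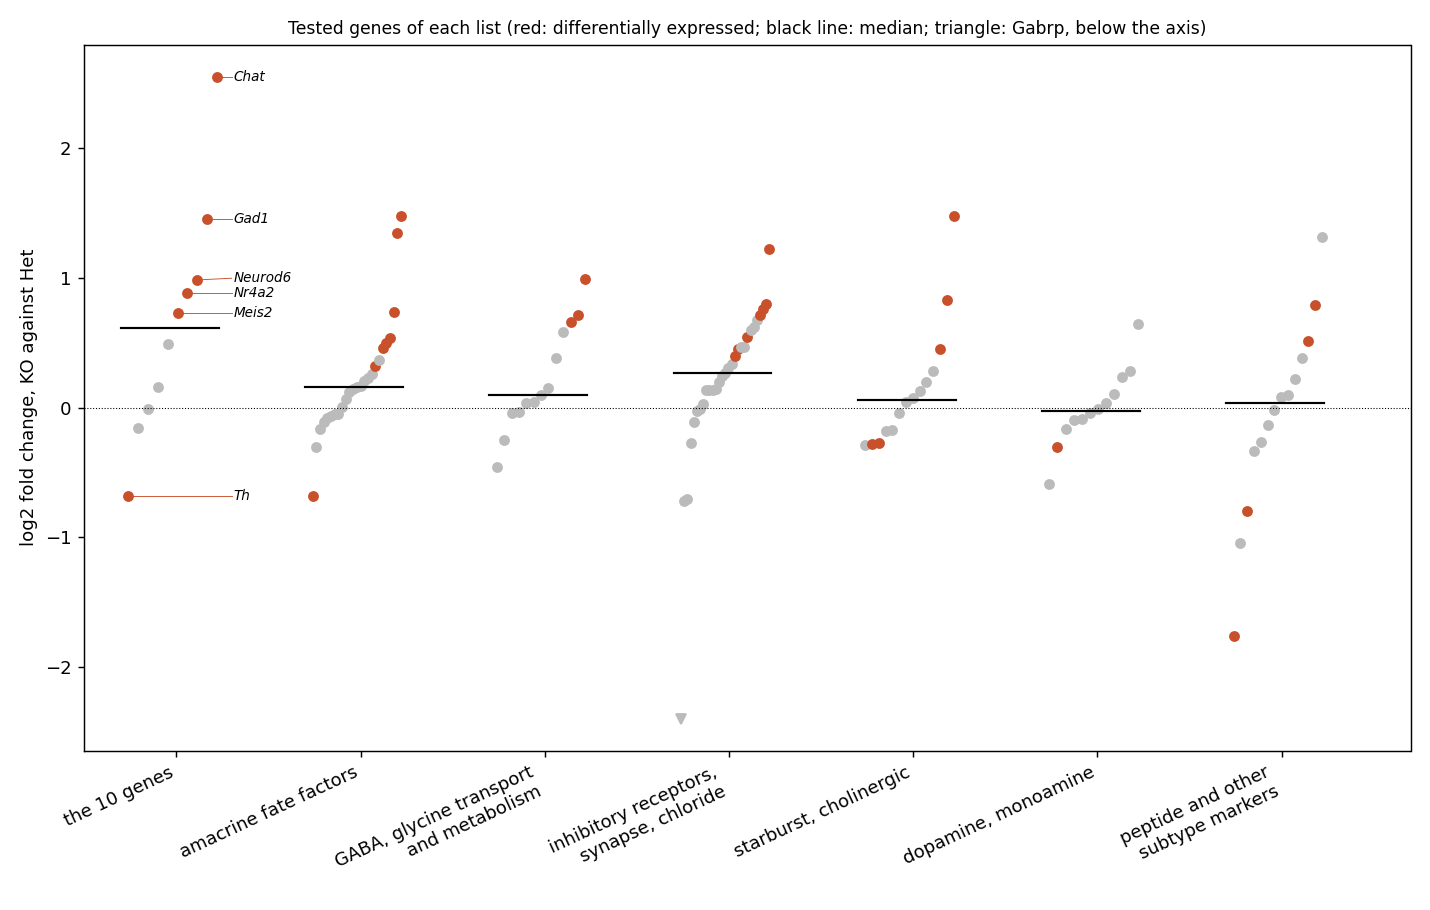
Log2 fold change of KO over Het for the genes of each pathway list, called genes in red and medians as black lines. *Gabrp*, not called, lies below the axis (triangle). All called genes of the transport and receptor lists lie above 0.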

How the data were processed

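Bulk RNA-seq of pooled E16 mouse retina was analysed in 7 libraries, of which 1 was WT and the others were Het or KO, 3 each. Per the submitters' processing notes, the authors used STAR for alignment and featureCounts for counts per gene. The deposited values are raw counts, not normalized, and 0 value columns belonged to no sample. The strand setting and the handling of reads that map to several places are not given in the sources used here.

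Counts were filtered with filterByExpr, scaled by TMM and fitted in all 7 libraries by genotype with edgeR 4.0.16 (quasi-likelihood test, R 4.3.3), testing KO against Het with Benjamini-Hochberg adjustment over 20019 genes. The script was tested on simulated data. CPM are TMM-scaled, and levels per kilobase use the exon union of GENCODE gene models (GRCm38). The GENCODE release of these models was later than the one named in the study's methods, so exon lengths may differ from those counted. Likeness of profiles used log2(CPM + 0.5). Total counts of 120593979 to 171117305 per library set the precision, and a gene at 3 counts or fewer was taken as at the floor.

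Alternatives were DESeq2 1.42.0, other scalings and filters, other call limits, a replicate block and leaving out each library. Named are the 10 genes, each called gene and the 3 most abundant genes of each list, and the 3 nearest profiles, except that some genes are not reported here. The members and lists were chosen with earlier results of these data known. No comparison was tested with WT, which had 1 library.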

Additional observations from a re-analysis of the deposited data

How the results depend on the processing

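Of the 1445 genes, 6 of the 10 and 28 pathway genes called, the counts with adjusted p alone as the rule were 2221, 6 and 31. Under glmTreat they were 217, 2 and 4. Leaving out each library in turn gave 386 to 1674 genes, 2 to 6 of the 10 and 9 to 30 pathway genes. *Slc6a9*, near 0, changed sign without KO replicate 1 (log2 fold change 0.0036) and without KO replicate 2 (0.15), the highest value, against -0.21 without KO replicate 3, the lowest. *Chat* could not be tested with at least 10 counts in every library. Replicate numbers did not pair the samples: the correlations of same-numbered Het and KO deviations were -0.14, 0.25 and -0.0063, and not every library correlated best with its own number. With the replicate block, 1268 genes, 6 of the 10 and 30 pathway genes were called, with *Slc32a1* gained and *Th* lost. DESeq2 called 2066 genes (11.9% of those with an adjusted p). With 3 libraries a group, low counts such as those of *Chat* and *Neurod6* limit the precision. The cause of these shifts was not tested.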

Other observations

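Among the 3 KO libraries, KO replicate 1 held the highest level of 6 of the 10 genes. Among the Het libraries, Het replicate 1, the library with muscle transcripts, held the highest of 6. No share over all tested genes is given beside these counts, and whether muscle tissue bears on them was not tested. The 10 genes summed to 211 CPM in WT, 239, 221 and 213 CPM in Het, and 332, 281 and 299 CPM in KO. Of the 20 tested genes nearest to *Chat*, 5 were called, the highest count among the 10 genes, against 7.22% of all tested genes. The count was 3 for *Gad1*, *Slc32a1*, *Meis2* and *Nr4a2*, 1 for *Gad2*, *Neurod6* and *Th*, and 0 for *Slc6a9* and *Barhl2*. The called gene *Slc18a3* lies within the *Chat* gene, and whether the region around *Chat* changed as a whole was not tested. Of the 10 genes, 5 lie on chromosome 2, where 6.56% of tested genes were called.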
